A study of Ovis aries with 91 samples.

Results

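Whole tissue of the atrial appendages of control sheep was set against cardiomyocytes isolated from the same appendages, gene by gene. Every control column of the whole tissue table was matched to the cardiomyocyte column of the same sheep and side, which gave 6 pairs from 3 sheep and used 12 of the 48 deposited columns. The series covers sheep atria in control animals and at the transition and chronic stages of atrial fibrillation, in which the atria beat fast and out of order. In the paced animals a tachypacing device in the right atrium induced it. Whole tissue came from the left and right appendages of sheep S3, S4 and C1, and the cardiomyocytes came from the left and right appendages of the same 3 animals. Sheep S3 and S4 are labelled sham. Sheep C1 has control as its condition in every label, while the titles of its right whole tissue libraries and the column names read sham. A further 4 paced sheep had both materials, of which D16 and D19 were chronic and D24 and D27 transition, with 8 pairs in all. The labels give no strain, age, sex or genotype, and do not say how the cardiomyocytes were isolated. Each column merged 2 technical replicates of 1 animal before deposit.

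Atrial muscle is built from cardiomyocytes, the large contracting cells that carry the sarcomere, the calcium handling machinery and many mitochondria. Between them lie fibroblasts, endothelial cells of the vessels and endocardium, smooth muscle and pericytes, immune cells, nerve endings and fat. RNA of whole tissue pools all of these, whereas RNA of isolated cardiomyocytes comes from cells that were separated from their surroundings before extraction. The share of a transcript that the other cells make is thereby reduced in the isolated cells. In bulk RNA, fewer cells of a type and less RNA per cell cannot be told apart.

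The files give Ensembl sheep gene identifiers without names, and 0 of them matched a gene name in the table at hand. Genes are therefore given by identifier, their functions and sequences are not given, and neither material could be checked against the marker genes of cardiomyocytes or of other cell types. Listed reads per control library ranged between 7.09e+06 and 1.27e+07 in whole tissue and between 7.33e+06 and 1.24e+07 in cardiomyocytes. The 10 highest genes took 16.2% to 20.5% of whole tissue reads and 18.8% to 21.1% of cardiomyocyte reads. The labels tie all whole tissue appendage libraries to one set of technical replicate names and all cardiomyocyte libraries to another, and the tables were normalised separately, so the effects of material, of these label sets and of the separate tables cannot be told apart. The first principal component held 50.8% of the variance of the 12 libraries and separated the materials, with whole tissue between 41.7 and 51.9 and cardiomyocytes between -51.2 and -38.5.

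Whole tissue and cardiomyocytes differed at a large number of genes, and of those past 8-fold most were lower in whole tissue. Of 12134 genes tested, 2668 were called higher in whole tissue, which is 22.0% of those tested, and 2760 were called lower, which is 22.7% (limma, Benjamini-Hochberg adjusted p under 0.05). The near-equal split follows from the centring, because the median difference of each pair, 0.29 to 0.34 on the log2 scale in favour of whole tissue as deposited, had been removed. Without centring the counts were 6061 higher and 1251 lower, and on library totals 6214 higher and 1214 lower. With these scalings 332 and 405 of the 5428 called genes changed sign, so a small difference has a direction only relative to the median gene. The median called difference was 0.63 among genes higher in whole tissue and -0.62 among genes lower there. Without sheep S4 the total of 5428 calls became 3569.

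The split of the largest differences kept its direction under each scaling, and the split at 2-fold did not. Over 2-fold, 548 genes (4.52%) were called higher in whole tissue and 738 (6.08%) lower. Over 4-fold, 61 genes were called higher and 253 lower, and over 8-fold 8 were called higher and 115 lower. The single largest differences were 7.03 in favour of whole tissue and -11.40 in favour of cardiomyocytes. The 8-fold counts were 12 higher and 94 lower without centring and 12 higher and 93 lower on library totals. They were 3 higher and 86 lower with 1 CPM added before the log, and 3 higher and 91 lower at a level filter of 2, and the 2-fold counts became 1235 higher and 477 lower without centring.

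**Figure D1:**
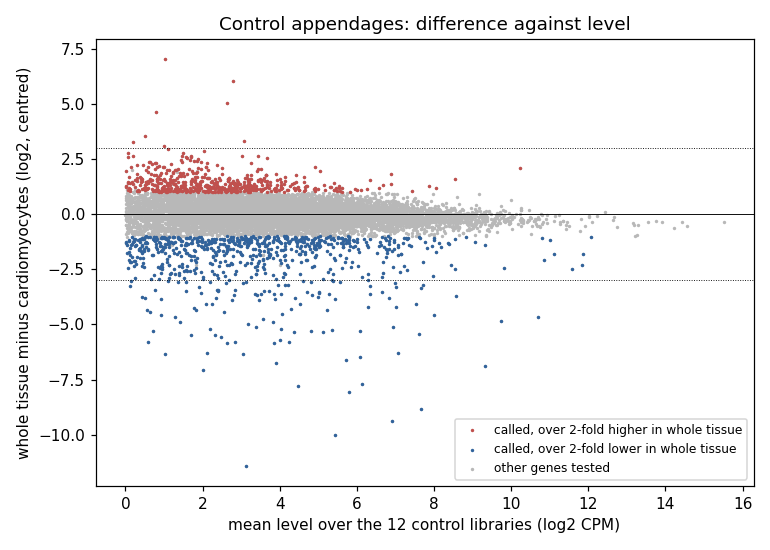
Each point is a gene, with its mean level over the 12 control libraries (log2 CPM) on the horizontal axis and its average whole tissue minus cardiomyocyte difference (log2, each pair centred on its median) on the vertical axis; dotted lines mark 8-fold. The 115 genes called beyond the lower dotted line outnumber the 8 beyond the upper one, and the lower tail reaches -11.40 while the upper reaches 7.03.

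ENSOARG00000009686 and ENSOARG00000001783 had the largest deficits in whole tissue among called genes above the median level with the same sign in every pair. ENSOARG00000009686 stood at 0.38, -1.71 and 0.28 log2 CPM in left whole tissue and at 2.34, 2.02 and 0.17 in right whole tissue (sheep S3, S4 and C1 in this order), against 10.28, 10.23 and 10.01 in left cardiomyocytes and 10.26, 10.94 and 9.93 in right cardiomyocytes. In reads this was 2 to 60 per whole tissue library and 7414 to 14519 per cardiomyocyte library. The materials did not overlap on either side, and the cardiomyocyte libraries lay close together while the whole tissue libraries varied. The average difference was -10.01 ± 0.30 (SE, adjusted p = 7.29e-09), a 1033-fold deficit in whole tissue. With 1 CPM added before the log it was -9.11, so the exact fold depends on the amount added to few whole tissue reads.

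ENSOARG00000001783 showed the same pattern at a higher level. It stood at 2.65, 2.87 and 0.83 log2 CPM in left whole tissue and at 3.03, 2.67 and 2.15 in right whole tissue, against 11.32, 11.54 and 11.48 in left cardiomyocytes and 11.20, 11.66 and 11.49 in right cardiomyocytes. Its reads numbered 12 to 97 per whole tissue library and 21785 to 38348 per cardiomyocyte library. The lowest whole tissue value came from the left appendage of sheep C1, and no whole tissue library came near a cardiomyocyte one. The average difference was -9.40 ± 0.25 (SE, adjusted p = 2.82e-09), which is 675-fold. With 1 CPM added it was -9.09.

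The genes of the lower tail passed the level filter largely through cardiomyocytes, because the filter used the mean over both materials. Of the 115 genes called over 8-fold lower in whole tissue, 99 had a median of at least 100 reads in the cardiomyocyte libraries, and in 112 all 6 cardiomyocyte libraries lay above all 6 whole tissue libraries at the deposited levels. Over all 12134 genes tested this held for 538 (4.43%), and genes chosen for a difference over 8-fold had to be apart, so nothing is read from the 112. The 99 have no share over all genes beside them, and nothing is read from them either. The median level of the 115 genes was 1.72 log2 CPM in whole tissue and 5.78 in cardiomyocytes. Summed, they took 0.147% to 0.242% of the reads of a whole tissue library and 3.77% to 5.45% of the reads of a cardiomyocyte library. The wider list of 738 genes over 2-fold lower held 2.62% to 3.60% of whole tissue reads and 10.1% to 13.7% of cardiomyocyte reads, so the ranges of the materials were apart for both lists. These shares describe lists that were picked by the same difference and are no further support for it.

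The same choice among genes higher in whole tissue led to differences of about 4-fold. ENSOARG00000020658, one of the most abundant genes of the comparison, stood at 11.69, 11.77 and 10.71 log2 CPM in left whole tissue and at 11.86, 11.75 and 10.75 in right whole tissue (S3, S4 and C1), against 9.18, 9.06 and 8.91 in left cardiomyocytes and 9.21, 8.96 and 8.79 in right cardiomyocytes. Sheep C1 was the lowest whole tissue library on both sides and still lay above every cardiomyocyte library. The average difference was 2.08 ± 0.14 (SE, adjusted p = 2.20e-06), or 4.24-fold.

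ENSOARG00000010388 had the largest excess in whole tissue among these genes. Its levels were 6.27, 6.18 and 5.92 log2 CPM in left whole tissue and 6.39, 6.15 and 5.96 in right whole tissue, against 3.38, 3.37 and 3.85 in left cardiomyocytes and 3.81, 3.91 and 3.75 in right cardiomyocytes. The values within a material spanned less than 1 log2 unit and the materials were apart. The average difference was 2.15 ± 0.12 (SE, adjusted p = 7.68e-07), or 4.42-fold. The 8 genes called over 8-fold higher in whole tissue had a median level of 3.99 log2 CPM in whole tissue and -1.06 in cardiomyocytes, and in all 8 every whole tissue library lay above every cardiomyocyte library. That held for 2818 (23.2%) of all genes tested, at the deposited levels, and nothing is read from the 8. They took 0.0166% to 0.0236% of whole tissue reads, and the 548 genes over 2-fold higher took 1.08% to 1.90% of whole tissue reads and 0.329% to 0.510% of cardiomyocyte reads.

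**Figure D2:**
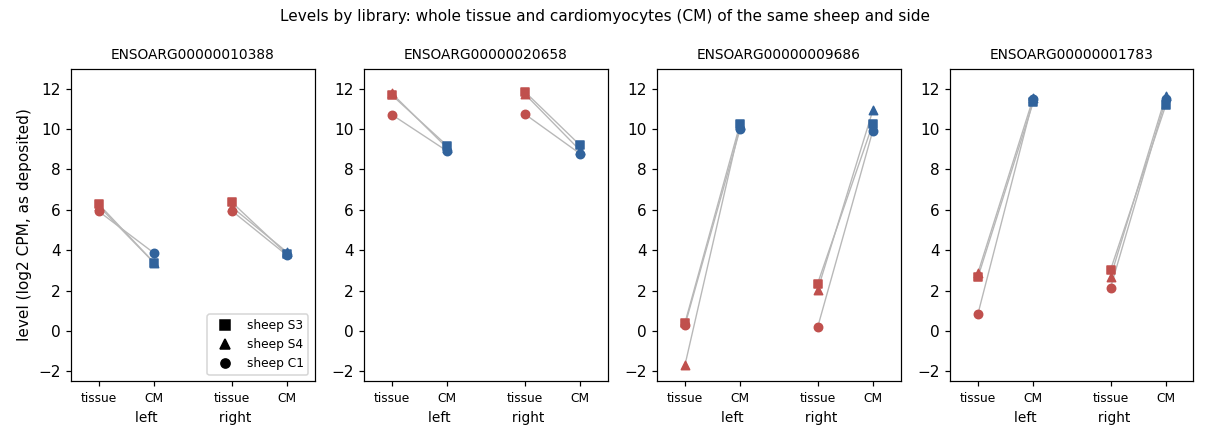
Levels in log2 CPM as deposited of 4 genes in every control library, with whole tissue (tissue) and cardiomyocytes (CM) of the same sheep and side joined by a line, the left appendage at the left of each panel and the right appendage at its right. In the 2 panels at the left whole tissue lies above cardiomyocytes in all 6 pairs, and in the 2 panels at the right it lies far below them, with average differences of -10.01 and -9.40.

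The kind of difference shifted with the level of a gene. Genes were put into 4 equal groups by their mean level over both materials. In the lowest group 21.6% of genes were called higher in whole tissue and 15.95% lower, while in the highest group 15.5% were called higher and 33.0% lower. Calls over 2-fold numbered 327 higher and 286 lower in the lowest group, against 21 higher and 141 lower in the highest. The most abundant genes were thus more often lower in whole tissue relative to the median gene, and large excesses in whole tissue were rare among them. The median standard error was 0.24 in the lowest group and 0.086 in the highest, so the precision differed between the groups as well.

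A large part of the genes had differences bounded close to 0. For 5339 genes, 44.0% of those tested, the 95% confidence interval of the average difference lay within 1.5-fold of no difference in either direction, once the median was removed. The quartiles of the average difference over all genes were -0.31 and 0.33. In 2318 genes whole tissue was higher in all 6 pairs and in 2499 it was lower in all 6, together 39.7% of the genes tested. Of the called genes, 2086 of the 2668 higher and 2272 of the 2760 lower went the same way in every pair. The calls were made from the same 6 pairs, which favours a shared sign, so these counts are no further support.

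Some genes were listed in only one of the tables and could not be tested. The whole tissue table alone listed 520 genes, at a median level of -0.34 log2 CPM, and these took 0.0718% to 0.117% of its reads. The cardiomyocyte table alone listed 595 genes, at a median of 0.44 log2 CPM, and these took 0.977% to 1.06% of its reads. Of these 595 genes 45 had a mean level over 5 log2 CPM, and the highest stood at 11.96. The posterior left atrium table, a further whole tissue set, listed 43 of the 45, at a median of 5.72 log2 units in the same 3 sheep, against 5.86 for these 43 genes in cardiomyocytes. In 38 of the 43 the posterior left atrium and the cardiomyocytes were within 1 log2 unit. That table is of another region and was normalised separately, and the level of these genes in appendage whole tissue is not known here. Nothing is read from the genes that only one table lists.

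The difference between the materials was shared by the appendages to a large extent. In the left appendage 1517 genes (12.5%) were called higher in whole tissue and 1695 (14.0%) lower. In the right appendage 1892 (15.6%) were called higher and 2004 (16.5%) lower. Both sides called 2325 genes in the same direction, which is 72.4% of the left calls and 59.7% of the right calls, and 31 genes in opposite directions. Over all genes the median size of the left minus right change in the difference was 0.20 on the log2 scale. Both sides came from the same 3 sheep and enter the same estimate of spread. Without sheep S4 the left calls numbered 1332 and the right calls 2062, and without sheep C1 they numbered 1687 and 1890, against 3212 and 3896 with all 3 sheep.

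ENSOARG00000009686 and ENSOARG00000001783 led the deficits on each side. Their differences were -10.85 ± 0.41 and -9.66 ± 0.34 in the left appendage and -9.17 ± 0.41 and -9.14 ± 0.34 in the right (SE). On the left the value of ENSOARG00000009686 was -10.14 without sheep S4 and that of ENSOARG00000001783 -9.00 without sheep C1. ENSOARG00000010388 and ENSOARG00000020658 led the excesses on the left, with 2.26 ± 0.17 and 2.01 ± 0.19. On the right other genes led, namely ENSOARG00000014874 with 2.99 ± 0.27 and ENSOARG00000016476 with 2.64 ± 0.28 (SE, adjusted p = 4.47e-05 and 0.000115).

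These right-sided genes had lower levels in left whole tissue than in right whole tissue. ENSOARG00000014874 averaged 3.30 ± 0.39 log2 CPM in left whole tissue and 6.82 ± 0.54 in right whole tissue, beside 2.96 ± 0.86 in left cardiomyocytes and 3.52 ± 0.33 in right cardiomyocytes (SD, n = 3 each). ENSOARG00000016476 averaged 8.67 ± 0.19 in left whole tissue and 10.32 ± 0.27 in right whole tissue, beside 7.81 ± 0.97 in left cardiomyocytes and 7.37 ± 0.48 in right cardiomyocytes (SD, n = 3 each). In both genes the 3 right whole tissue libraries lay above the 3 left ones, while left and right cardiomyocytes overlapped.

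Where the difference itself changed with the side, it was nearly always lower on the left. The test of left minus right called 2 genes higher (0.0165%) and 87 lower (0.717%). Of the 87 genes, 86 were lower in left than in right whole tissue, where 5518 of all 12134 genes were. In cardiomyocytes 74 of the 87 were higher on the left. The test chose genes whose whole tissue minus cardiomyocyte difference was lower on the left, which favours both shifts, so neither count is further support. The median left minus right change was -1.59 in whole tissue and 0.46 in cardiomyocytes, which describes genes that the same libraries chose. Whole tissue changed more in size than cardiomyocytes in 75 of the 87. In 62 of the 87 whole tissue was below cardiomyocytes on the left and above them on the right. The 74, the 75 and the 62 have no share over all genes beside them, so nothing is read from them. Of the 87, 48 were called higher and 14 lower in the average over both sides, where 22.0% and 22.7% of all genes tested were. The calls depended on single animals and on the pairing. Without sheep S4 only 2 genes were called and without sheep C1 52, with whole tissue and cardiomyocyte libraries left unpaired 3, and without the mean-variance trend 16.

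ENSOARG00000014232 and ENSOARG00000001568 led the genes lower on the left. Genes named for left minus right were chosen to have the same sign in every sheep. The difference of ENSOARG00000014232 was 0.30, -0.95 and -1.42 in the left pairs of S3, S4 and C1, against 2.99, 2.94 and 1.17 in the right pairs. Its levels were 4.98 ± 0.21 log2 CPM in left whole tissue and 6.19 ± 0.36 in right whole tissue, and 5.34 ± 1.10 in left cardiomyocytes and 3.51 ± 0.95 in right cardiomyocytes (SD, n = 3 each). Whole tissue and cardiomyocytes thus moved in opposite directions between the sides, and every left pair lay below every right pair. Left minus right was -3.06 ± 0.51 (SE, adjusted p = 0.0260).

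For ENSOARG00000001568 the difference was -2.29, -2.86 and -3.03 in the left pairs of S3, S4 and C1, against -0.46, 1.52 and -0.12 in the right pairs. Its levels were 2.55 ± 0.45 log2 CPM in left whole tissue and 5.10 ± 0.62 in right whole tissue, and 4.94 ± 0.81 in left cardiomyocytes and 4.48 ± 0.85 in right cardiomyocytes (SD, n = 3 each). Here whole tissue changed between the sides and the cardiomyocytes overlapped. Left minus right was -3.04 ± 0.44 (SE, adjusted p = 0.0120).

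The genes called higher on the left were ENSOARG00000014898 and ENSOARG00000006714. The difference of ENSOARG00000014898 was -1.90, -0.80 and -1.49 in the left pairs of S3, S4 and C1, against -3.001, -2.88 and -2.88 in the right pairs. It stood at 7.62 ± 0.87 log2 CPM in left whole tissue and 5.97 ± 0.68 in right whole tissue, and at 8.68 ± 0.37 in left cardiomyocytes and 8.58 ± 0.68 in right cardiomyocytes (SD, n = 3 each), so the deficit in whole tissue was smaller on the left in every sheep. Left minus right was 1.53 ± 0.24 (SE, adjusted p = 0.0167). ENSOARG00000006714, chosen after its values were seen and below the median level, had a difference of -0.85 on the left and -2.51 on the right (adjusted p = 0.0473).

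**Figure D3:**
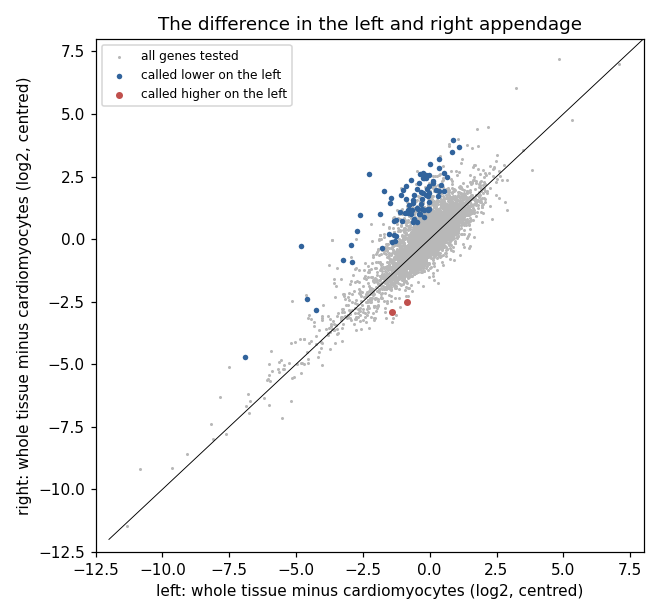
Each point is a gene, with the whole tissue minus cardiomyocyte difference (log2, centred) of the left appendage on the horizontal axis and that of the right appendage on the vertical axis; the line marks equal differences. Of the genes called by the left minus right test, 87 lie above the line and 2 below it, and most of the 87 sit between a left difference below 0 and a right difference above 0.

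The SD between sheep was larger for the difference than for either material, and a difference carries the spread of both. Over the genes tested the median SD between sheep was 0.26 log2 units in whole tissue and 0.24 in cardiomyocytes, and 0.31 for the within-pair difference. Single pairs had 492 to 1198 genes over 2-fold higher in whole tissue and 925 to 1042 genes over 2-fold lower, and the 3 right pairs had the 3 highest counts of the first kind. Over 8-fold lower, each pair had 128 to 145 genes. The median range between the 3 sheep, averaging both sides, was 0.38. In 134 of the 12134 genes tested the sheep lay over 2 log2 units apart. In 38 of these 134 sheep C1 was the one farthest from the middle sheep, in 56 sheep S3 and in 40 sheep S4. No sheep accounted for most of them. Over all genes tested C1 was farthest in 30.9%, S3 in 38.8% and S4 in 30.3%. Among the 115 genes over 8-fold lower, 9 varied this much. In 6 of the 9 the sheep farthest off was C1, which is too few genes to read.

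Lists drawn from 2 sheep mostly kept their direction in the sheep left out. The technical replicate label sets and the separate tables are the same in every sheep, so this cannot tell them apart from the material. From each set of 2 sheep the 500 genes with the largest excess and the 500 with the largest deficit in whole tissue were taken, and their differences were read in the remaining sheep. Of the excess lists, 469, 449 and 427 genes were higher in whole tissue on both sides in sheep S3, S4 and C1. Of the deficit lists, 485, 484 and 477 genes were lower on both sides in the same sheep. Over all genes 35.2% to 36.7% were higher on both sides in a given sheep, and centring each pair on its median makes the share lower the same. The deficit lists had medians of -1.96 to -2.16 in the sheep left out, against -2.02 to -2.09 in the sheep that chose them. The excess lists had medians of 1.13 to 1.37, against 1.28 to 1.42.

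The paced sheep, whose libraries are separate from the control libraries, showed the same direction in most of the genes called in control sheep. Their libraries carry the same label sets and come from the same separate tables, so those effects are shared. Of the 2668 genes called higher in control whole tissue, 2658 were in the fit that included paced sheep, and 1985 (74.7%) were higher in whole tissue in all 4 paced sheep, where 31.4% of all genes were. Of the 2760 called lower, 2748 were in that fit and 2055 (74.8%) were lower in all 4, where 32.2% of all genes were. Of the 115 genes over 8-fold lower, 114 were in the fit and 112 of these were lower in whole tissue in all 4 paced sheep. Their median difference was -3.17 in paced sheep and -4.08 in control sheep. The control pairs chose these genes, which by itself makes control values the more extreme, so the gap between these medians is given as a description.

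**Figure D4:**
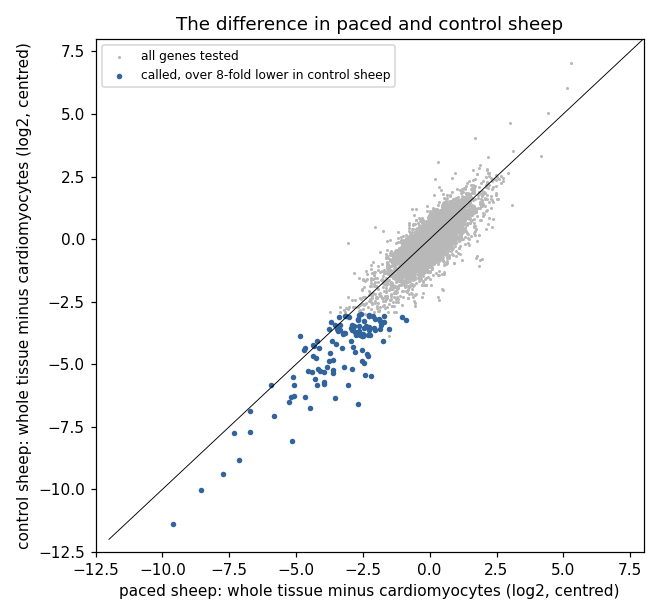
Each point is a gene, with the whole tissue minus cardiomyocyte difference (log2, centred, mean of both sides) of the 4 paced sheep on the horizontal axis and that of the 3 control sheep on the vertical axis; the line marks equal differences. The genes called over 8-fold lower in control sheep have a median of -3.17 in paced sheep and -4.08 in control sheep, and all but 2 of the 114 plotted are lower in whole tissue in all 4 paced sheep.

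The difference between the materials itself differed between paced and control sheep at some genes. Tested over 12133 genes as an interaction, paced minus control was called higher at 756 genes (6.23%) and lower at 916 (7.55%), with chronic and transition sheep weighted equally. Without centring the counts were 869 higher and 687 lower, on library totals 958 higher and 720 lower, and with the materials left unpaired, each pair still centred, 377 higher and 486 lower. Each of 5 animals moved the total of 1672 calls by more than 1.5 times: it was 858 when sheep S3 was left out, 994 when S4 was, 476 when D16 was, 706 when D19 was and 604 when D27 was. Chronic against transition was not tested, with 2 sheep each.

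ENSOARG00000010939 and ENSOARG00000010493 led the genes whose difference was higher in paced sheep, and both were far below cardiomyocytes in control whole tissue. Genes named for paced minus control were chosen to have no overlap of sheep means. ENSOARG00000010939 had sheep means of -1.08 and -2.20 in chronic sheep D16 and D19 and -4.06 and -3.46 in transition sheep D24 and D27, against -5.86, -5.32 and -8.58 in control sheep S3, S4 and C1. Paced whole tissue stood at 2.84 to 5.86 log2 CPM and control whole tissue at -0.64 to 4.56, which overlapped. Paced cardiomyocytes stood at 6.41 to 7.54 and control cardiomyocytes at 8.12 to 9.84, which did not. Paced minus control was 3.89 ± 0.59 (SE, adjusted p = 0.00272), and 2.90 without sheep C1, where the gene had 4 and 13 reads in whole tissue.

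ENSOARG00000010493 had sheep means of -1.03 and -2.55 in D16 and D19 and -3.85 and -2.31 in D24 and D27, against -4.14, -4.50 and -7.66 in S3, S4 and C1. Its levels in paced whole tissue were 5.53 to 9.35 log2 CPM and in control whole tissue 1.47 to 8.07, while paced cardiomyocytes stood at 8.49 to 9.75 and control cardiomyocytes at 9.25 to 11.09. Both materials overlapped between paced and control sheep, and sheep C1 was the lowest control animal in whole tissue. Paced minus control was 3.001 ± 0.70 (SE, adjusted p = 0.0151), and the call was lost without D16, without D27 and with the materials unpaired. Without sheep C1 the value was 1.89 and the call was kept.

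ENSOARG00000010191 and ENSOARG00000011636 led the genes whose difference was lower in paced sheep. ENSOARG00000010191 had sheep means of -2.14 and -1.75 in D16 and D19 and -0.64 and -1.81 in D24 and D27, against -0.21, -0.03 and 0.0047 in S3, S4 and C1. Averaged over both sides, the materials were nearly level for this gene in control sheep once centred. The left control pairs stood at -0.01, 0.16 and 0.29 (S3, S4 and C1) and the right ones at -0.41, -0.23 and -0.28. Every paced sheep lay below every control sheep. Levels in paced whole tissue were 2.87 to 6.53 log2 CPM and in control whole tissue 5.89 to 7.33. Paced cardiomyocytes stood at 5.09 to 7.91 and control cardiomyocytes at 5.89 to 7.02, so both materials overlapped with the sides pooled. Left whole tissue alone did not overlap, at 4.74 to 6.53 in paced and 6.91 to 7.33 in control sheep. Right whole tissue did, at 2.87 to 6.31 and 5.89 to 5.98. Paced minus control was -1.50 ± 0.21 (SE, adjusted p = 0.00158).

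ENSOARG00000011636 had sheep means of -3.23 and -2.83 in D16 and D19 and -1.98 and -2.46 in D24 and D27, against -1.78, -1.11 and -1.82 in S3, S4 and C1. Whole tissue was below cardiomyocytes in all 7 sheep and further below in the paced ones. Paced minus control was -1.06 ± 0.17 (SE, adjusted p = 0.00342). For this gene and for ENSOARG00000010191 the call was lost with the materials unpaired.

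**Figure D5:**
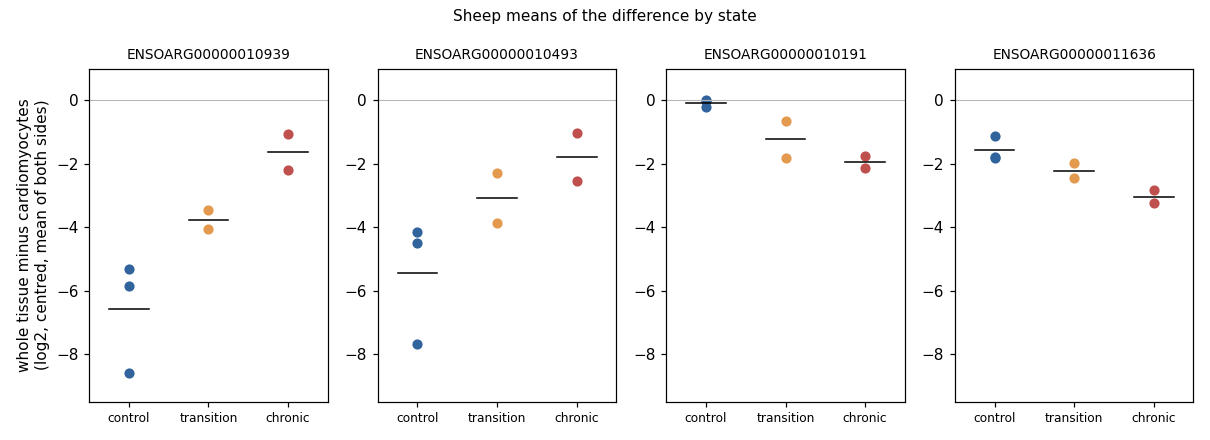
Sheep means of the whole tissue minus cardiomyocyte difference (log2, centred, mean of both sides) of 4 genes by state, with a point per sheep and a line at the mean of each state. In the 2 panels at the left the paced sheep lie above all 3 control sheep. In the 2 panels at the right they lie below them. The naming rule required this, so it is no further support.

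The posterior left atrium of the same 3 control sheep, by the sheep named in the labels and not by the column names, gave a further whole tissue measurement, from a table that was normalised separately and whose log values had been altered by a later step. Of the 115 genes over 8-fold lower in appendage whole tissue, 93 were listed there. These 93 had a median of 2.80 log2 units in the posterior left atrium, beside 2.29 in appendage whole tissue and 6.31 in appendage cardiomyocytes. For 90 of the 93 the posterior left atrium was nearer to appendage whole tissue than to cardiomyocytes, where this held for 7656 of 11690 genes tested and listed there. It also held for 524 of 630 listed genes over 2-fold lower, 480 of 531 over 2-fold higher and 4 of 5 over 8-fold higher. ENSOARG00000009686 stood at 0.87, 1.01 and 1.43 log2 units in the posterior left atrium of S3, S4 and C1, and ENSOARG00000001783 at 3.65, 3.35 and 1.40. Both genes were thus low there as in appendage whole tissue. ENSOARG00000020658 stood at 11.52, 11.45 and 10.41, close to appendage whole tissue. ENSOARG00000010388 stood at 4.08, 4.41 and 4.23, between the materials and nearer to cardiomyocytes. Its left and right means were 3.53 and 3.83 in cardiomyocytes and 6.12 and 6.17 in appendage whole tissue. The lowest whole tissue level of ENSOARG00000020658 was that of sheep C1 in the posterior left atrium as in both appendages.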

How the data were processed

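Libraries were prepared with the NEBNext Ultra kit, per the labels' protocols, and bcl2fastq, cutadapt, RSEM and limma are named, without versions or roles, in the submitters' processing notes. The aligner, genome build, annotation and use of strand were not given in the sources used here, so genes that share reads with a copy or overlap another gene are uncertain. The deposited values are log2 values, which the authors made within each table; the values themselves show reads with 0.5 added, scaled per library to CPM: all 79122 whole tissue and 79572 cardiomyocyte values of the control columns gave whole reads within 0.05. Appendage columns were tied to sheep by name. The posterior left atrium columns match sample titles that number the sheep S1, S2 and S3, and the sheep label of those samples gives S3, S4 and C1, which was followed. There were 0 columns of unmatched samples. No 2 of the 12 libraries agreed within sampling noise (lowest chi-square per degree of freedom 12.1 over 66 combinations).

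Within each pair the cardiomyocyte value was subtracted from the whole tissue value, and the median over the genes tested was removed, which cancels the scaling of either table. This makes a test across separately normalised tables possible for differences relative to the median gene, not for levels. Genes in both tables (12667) with a mean log2 value of at least 0 were tested (12134). limma 3.58.1 in R 4.3.3 fitted the side means with a mean-variance trend, the sheep as a random effect (consensus correlation 0.0302, and 0.0500 in the fit with paced sheep) and Benjamini-Hochberg adjustment at 0.05. The pairing comes from the animals: deviations of same-sheep libraries of both materials correlated at 0.233 to 0.524 and those of different sheep at -0.348 to -0.0281. Deviations around a mean over few sheep would pull the second range below the first by themselves, so it is not read as separate support. No count model was used, since the unit is log2; voom weights on recovered reads were an alternative. The paired fit was also run on simulated reads, with independent pairs and the same added noise for every gene. That run could not test correlated sides, unequal spread of genes or effects of the separate tables.

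Genes were named where they passed the threshold, lay above the median level and had the same sign in every pair (every sheep for left minus right, no overlap of sheep means for paced minus control). Of these the largest differences were taken, at most 2 per direction as the identifiers carry no names. Lists of marker and pathway symbols could not be used and give no result. The comparison and its lists were chosen with earlier results of these data known. Control sheep join animals labelled sham with 1 labelled control.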

Additional observations from a re-analysis of the deposited data

Results flagged for a closer look

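At 3 genes the whole tissue minus cardiomyocyte difference was found to differ between the appendages of control sheep by the left minus right test (limma, n = 3 sheep). Left minus right was 1.53 for ENSOARG00000014898, with all 3 sheep higher on the left. It was -3.06 for ENSOARG00000014232 and -3.04 for ENSOARG00000001568, with all 3 sheep lower on the left. Genes were named only if every sheep went the same way, so this is no further support. All 3 calls were lost without sheep S4, where the values were 1.25, -2.65 and -2.37, without the mean-variance trend (adjusted p = 0.136, 0.173 and 0.102) and with the materials unpaired (adjusted p = 0.852, 0.202 and 0.190). ENSOARG00000014898 and ENSOARG00000001568 also lost theirs without sheep C1 (adjusted p = 0.129 and 0.0890).

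At 4 genes the difference was found to differ between paced and control sheep by the interaction test (limma, 4 and 3 sheep). Paced minus control was 3.89 for ENSOARG00000010939 and 3.001 for ENSOARG00000010493, with every paced sheep above every control sheep. Without sheep C1 these values were 2.90 and 1.89, and both calls were kept. With the materials unpaired the call of ENSOARG00000010493 was lost (adjusted p = 0.0864). Its value was 2.62 without sheep D16 and 2.61 without sheep D27. Paced minus control was -1.50 for ENSOARG00000010191 and -1.06 for ENSOARG00000011636, with every paced sheep below every control sheep. With the materials unpaired the calls of ENSOARG00000010191 and ENSOARG00000011636 were lost (adjusted p = 0.0802 and 0.265). The naming rule required sheep means that do not overlap, so neither separation of paced and control sheep is further support.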

How the results depend on the processing

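Of 99 alternative counts 77 stayed within 1.5 times the reported count. Of 317 alternative values of the named genes 295 kept their call and direction, 22 kept the direction only and 0 changed direction. The cause of the following moves was not tested. The 5428 calls of the average became 3569 to 5086 with 1 sheep left out, lowest without S4. Those over 2-fold, 1286, became 803 at a level filter of 2, which leaves fewer genes, and 1226 to 1296 with a sheep left out. The 3212 left calls became 5465 without centring and 1332 to 2577 with a sheep left out (1332 without S4, 1687 without C1). The 3896 right calls became 6063 on library totals, 2590 with each side fitted alone and 1890 to 3872 with a sheep left out (2062 without S4, 1890 without C1). The 89 left minus right calls became 16 without trend and 2 to 95 with a sheep left out. The 1672 paced minus control calls became 1035 without trend and 476 to 1787 with a sheep left out.

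With the pairing ignored (no replicate block) and 1 shift for all pairs, the average gave 4644 calls, left minus right 3 and paced minus control 785 (441 higher, 344 lower). With the pairing ignored and each pair still centred, an alternative chosen after seeing the data, they gave 4642, 3 and 863. With a control sheep left out, the consensus correlation of all 3 was used, since 2 sheep gave none. Genes with few reads limit precision: the median standard error was 0.24 in the lowest of 4 groups of genes by level. With 3 control sheep p-values measure the spread of pairs from few animals. The consensus correlation was low, so left and right pairs of a sheep entered almost as separate replicates. With left and right averaged per sheep, the control comparison gave 4976 calls and paced minus control 1317. The adjusted p (limma) was then 6.40e-06 for ENSOARG00000009686, 0.0176 for ENSOARG00000010939 and 0.0445 for ENSOARG00000010493. In the main fit it was 7.29e-09, 0.00272 and 0.0151.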
